A study of Rattus norvegicus with 12 samples.

Results

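The miRNAs rno-miR-192, rno-miR-194 and rno-miR-215, called miR-192, miR-194 and miR-215 here, were followed in the plasma of 12 rats. They were the 3 probes, of 420 for rat miRNAs, whose names gave 1 of these miRNAs once the species prefix and any arm ending had been removed, and each miRNA had 1 probe with no arm in its name. The family was chosen by its measured difference between pregnant and control rats, which was known beforehand, so its values in that comparison are given as a description and without a test. The samples came from female Wistar rats, 6 of them pregnant and killed at E14.5, past the middle of gestation, and 6 non-pregnant, with 1 plasma sample per rat. Control rats were 239, 269, 110, 111, 112 and 112 days old in replicates 1 to 6, and pregnant rats were 269, 103, 373, 104, 110 and 110 days old. Blood was drawn from the heart after death in both groups, platelets were spun out of the plasma, and a rice miRNA was added to every sample before the RNA was purified. The nCounter assay joins each miRNA to a DNA tag and captures it between a pair of probes, one of which carries a coloured barcode, and each barcode imaged is 1 count.

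These miRNAs are abundant in liver, gut epithelium and kidney, where the hepatocyte nuclear factors drive their genes. They are also induced by p53 and slow the cell cycle in several cell types. In blood, miR-192 is used beside miR-122 as a marker of liver injury. In the rat, as in other mammals, they are made from paired hairpins, one pair with miR-192 and one with miR-215, and each pair holds a copy of miR-194.

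The mature sequences are shown because they define how the members can be told apart. They are the RefSeq entries of build GRCr8, 5′ to 3′, with bases 2 to 8, the seed that pairs with target mRNAs, in capitals.
rno-miR-192-5p: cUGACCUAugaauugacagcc
rno-miR-215: aUGACCUAugauuugacagaca
rno-miR-194-5p: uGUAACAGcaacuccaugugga
All 3 probes were matched to these entries by name, and for miR-192 and miR-194 the 5p arm was taken although the probe names give no arm. The miR-192 and miR-215 sequences share their seed, and among the 693 mature rat names in the table no other carried it. Over the 21 positions that can be compared, counted from 1 at the 5′ end, 18 were identical and 3 differed, with miR-192 as the reference: C1A, A12U and C20A. The miR-215 entry had 1 more base at its 3′ end. The seed of miR-194 is a different one and was carried by no other mature name.

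The hairpin of miR-192 lies at chr1:212994209-212994318 on the plus strand and that of miR-194-2 at chr1:212994024-212994108, with 100 bases between them. The hairpin of miR-215 lies at chr13:99382990-99383086 on the plus strand and that of miR-194-1 at chr13:99382716-99382798, with 191 bases between them. Both copies give the same mature miR-194, so its probe counts the product of the pair on chromosome 1 and of the pair on chromosome 13 together.

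The endogenous probes summed to between 5163 counts, in pregnant replicate 2, and 30301 counts, in pregnant replicate 6. Pregnant replicates 5 and 6 stood apart from the other rats by depth, with 24010 and 30301 counts where the other 10 rats had at most 13102. Results that rest on these 2 rats are therefore given with and without them. The miRNAs that mark plasma were present throughout, with 67 to 5714 counts of miR-122, the liver miRNA, and 48 to 2529 counts of miR-451, the red cell miRNA. The precision of each value is set by its counts, and the intervals given for shares cover counting error only.

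The miR-215 count was 22, 7, 30, 64, 31 and 46 in control replicates 1 to 6. In pregnant replicates 1 to 6 it was 19, 6, 42, 89, 695 and 586. Pregnant replicates 5 and 6 were far above all others, and pregnant replicate 4 was above all control rats. The groups overlapped, since pregnant replicates 1 and 3 lay within the control range of 7 to 64. Pregnant replicate 2 had the lowest count of all.

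The miR-192 count was 24, 14, 26, 22, 21 and 27 in control replicates 1 to 6. In the pregnant rats it was 14, 18, 16, 24, 146 and 126. The high rats were again pregnant replicates 5 and 6, while the other 4 pregnant rats lay within the control range.

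The miR-194 count was 4, 3, 5, 1, 1 and 4 in control replicates 1 to 6. In the pregnant rats it was 5, 2, 3, 5, 4 and 6. Pregnant replicates 5 and 6, which were high in the other members, thus had 4 and 6 counts of miR-194, and the highest count of any rat was 6.

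**Figure D1:**
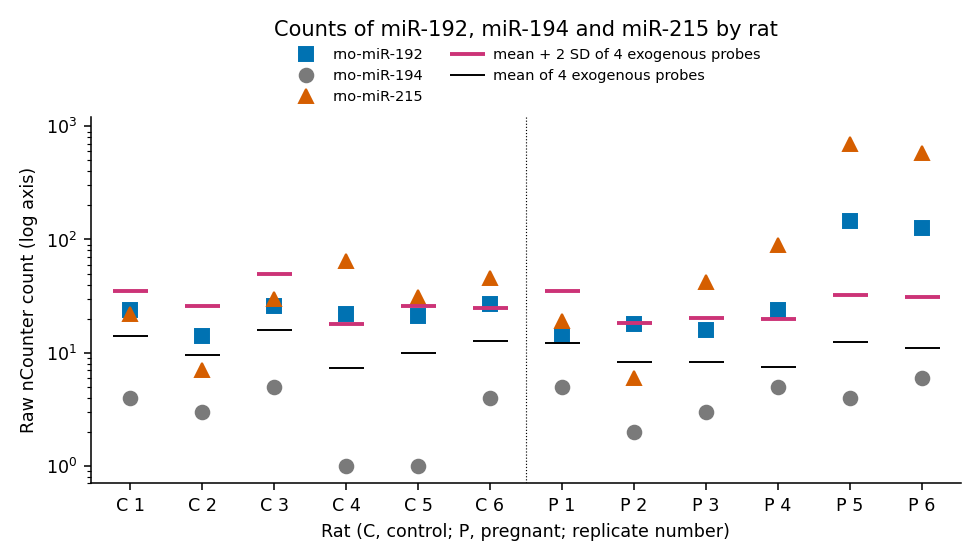
Raw nCounter count (log axis) of miR-192, miR-194 and miR-215 in each of the 6 control and 6 pregnant rats, with the mean and the mean + 2 SD of 4 exogenous probes without a spike-in drawn as short lines. The highest values are the 695 and 586 counts of miR-215 in pregnant replicates 5 and 6, and miR-194 lies below the mean of the exogenous probes in every rat.

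How far these counts stood above background was read from 4 probes for exogenous miRNAs of which none was added, since the negative control counts were not used here. Their mean was between 7.25 and 15.75 counts per rat. The miR-192 count exceeded this mean in 12 of 12 rats, but it exceeded the mean + 2 SD in 5, namely control replicates 4 and 6 and pregnant replicates 4, 5 and 6. The miR-215 count exceeded the mean in 10 rats and the mean + 2 SD in 7, namely control replicates 4, 5 and 6 and pregnant replicates 3 to 6. It was under the mean in control replicate 2 and pregnant replicate 2. The miR-194 count exceeded the mean in 0 rats. It averaged 3.58 ± 1.62 counts (SD, n = 12), against 3.58 ± 2.02 for cel-miR-248 and 4.5 ± 1.78 for osa-miR442, both probes with no target added. Expression of miR-194 was therefore not told apart from background here, and its changes between rats are changes of a few counts.

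Among the 420 endogenous probes, miR-215 ranked 16th by mean count, miR-192 45th and miR-194 348th, ranks that reflect probe efficiency as well as level. In pregnant replicate 5, miR-215 took 2.89% of all endogenous counts (95% Wilson interval 2.69 to 3.11%), and in pregnant replicate 6 it took 1.93% (1.78 to 2.10%). The highest share in a control rat was 0.721% (0.565 to 0.919%), in replicate 4. The share of miR-192 was 0.608% (0.517 to 0.715%) in pregnant replicate 5 and 0.416% (0.349 to 0.495%) in pregnant replicate 6. The highest control share of miR-192 was 0.344% (0.237 to 0.500%), in replicate 6. These intervals hold counting error within a rat and not the spread between rats, so they are no test of the groups.

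The ratio of the miR-215 to the miR-192 count within a rat does not depend on scaling. It was 0.917, 0.500, 1.15, 2.91, 1.48 and 1.70 in control replicates 1 to 6. In the pregnant rats it was 1.36, 0.333, 2.62, 3.71, 4.76 and 4.65. It thus differed from rat to rat in both groups and was highest in pregnant replicates 5 and 6, so miR-215 stood further above the other rats there than miR-192 did. Background counts are a larger part of the lower values, and how far each probe binds the other miRNA was not tested.

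Levels are then given as CPM, counts scaled to a common total over the 187 probes with at least 10 counts in 6 or more rats. The trimmed mean of M-values (TMM) was used, which aligns the bulk of the probes between rats. Its factors ran from 0.479 in pregnant replicate 6 to 1.96 in pregnant replicate 2. After background subtraction 80 probes passed the same filter, so many of the aligned probes lay near background. The level of miR-215 was 3643 ± 2271 CPM in control and 18530 ± 21310 CPM in pregnant rats (SD, n = 6 each). Its log2 fold change for pregnant against control rats was 2.35 (standard error 0.83), the highest of the 187 probes. The level of miR-192 was 2409 ± 395.9 CPM in control and 4739 ± 3863 CPM in pregnant rats, a log2 fold change of 1.01 (standard error 0.43). The median over all tested probes was 0.05. In both members the SD of the pregnant group was close to its mean. Over all 187 tested probes, 0 (0%) had an adjusted p under 0.05 by edgeR's quasi-likelihood test and 11 (5.88%) had an unadjusted p under 0.05, of which 10 were higher (5.35%) and 1 lower (0.535%) in pregnant rats. This split turned with the scaling, since 1 of 13 such probes was higher with library size and 3 of 14 with the upper quartile. DESeq2 and limma-voom also called 0 probes, with 8 and 6 under 0.05 without adjustment. The miR-194 probe did not pass the count filter. In the fit on all 420 probes its log2 fold change was 0.40 (standard error 0.35).

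The fold changes were set by pregnant replicates 5 and 6. With these 2 rats left out, which was decided once their counts were known, the log2 fold change of miR-192 was -0.15 (standard error 0.22) and that of miR-215 was 0.40 (standard error 0.63). With any 1 rat left out they ran from 0.62 to 1.15 for miR-192 and from 1.76 to 2.68 for miR-215, and both were lowest without pregnant replicate 5. Scaling by library size gave 0.30 for miR-192 and 1.40 for miR-215, and limma-voom gave 0.44 and 0.95. Library size moved the median of all tested probes to -0.33.

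**Figure D2:**
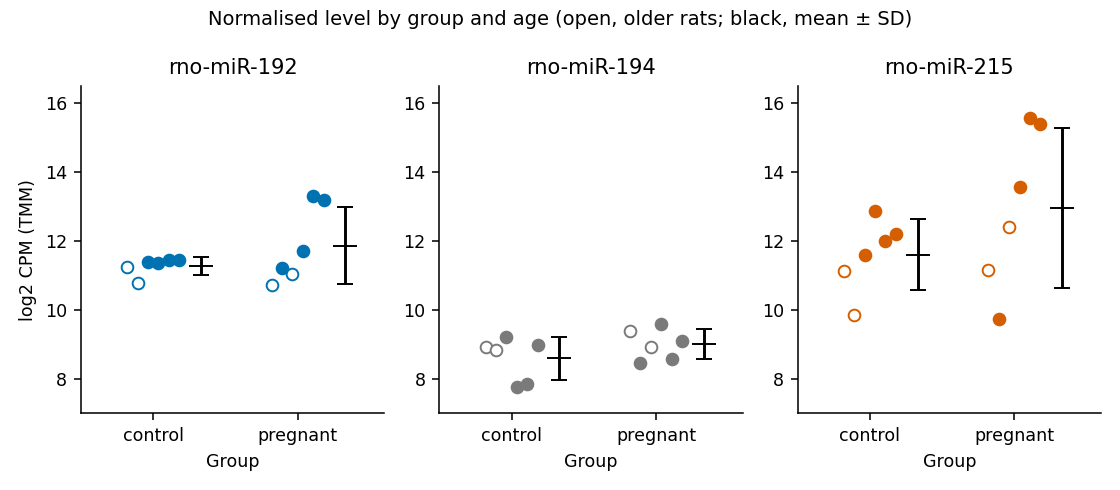
Normalised level (log2 CPM, TMM) of each member by group, 1 point per rat, with the 4 older rats as open points and black marks for the mean ± SD of 6 rats. In miR-192 and miR-215 the pregnant group is spread more widely than the control group, up to 13.32 and 15.56, while miR-194 lies between 7.78 and 9.60 in all 12 rats.

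The spread between rats differed between the members. On the log2 CPM scale the SD of miR-215 was 1.04 in control and 2.32 in pregnant rats, ranking 4th and 2nd among the 187 tested probes. The SD of miR-192 was 0.26 in control rats, where the median probe had 0.36, and 1.12 in pregnant rats, where the median probe had 0.48. In control rats miR-192 thus ranked 140th of 187 by SD, while miR-215 varied widely in both groups. The miR-192 counts of the control rats were 14 to 27 and exceeded the mean + 2 SD of the exogenous probes in 2 of 6. Its small SD is therefore read near background and does not show how steady the miRNA itself was.

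Age offers another comparison, because each group held 2 older rats, between 239 and 373 days, and 4 younger ones, between 103 and 112 days. This comparison is not independent of the choice of the members. The 2 pregnant rats that set the pregnancy difference, with 695 and 586 counts of miR-215, were both among the younger rats. The log2 fold changes of miR-215 and miR-192 for age are therefore given below with and without these rats. In control rats the miR-215 count was 22 and 7 in the older and 30, 64, 31 and 46 in the younger rats. In pregnant rats it was 19 and 42 in the older and 6, 89, 695 and 586 in the younger rats. The older rats were below every younger rat in the control group, and in the pregnant group the lowest rat was a younger one.

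With pregnancy as a covariate, the log2 fold change of miR-215 for older against younger rats was -2.23 (standard error 0.80, edgeR adjusted p = 0.613). That of miR-192 was -1.08 (standard error 0.42, edgeR adjusted p = 0.613), and the median over all tested probes was -0.02. Neither passed the threshold, nor did any of the 187 probes (0%), and DESeq2 and limma-voom also called 0, with 13 and 11 probes under 0.05 without adjustment. Without adjustment both members were under 0.05, with lower levels in older rats, as were 6.42% of the tested probes, 5.35% in that direction (10 of 187) and 1.07% in the other. The mean log2 CPM of miR-215 in older minus that in younger rats was -1.67 in the control and -1.79 in the pregnant group. For miR-192 these differences were -0.405 and -1.46, and the older rats lay below every younger rat on the log2 CPM scale in both groups, where 9.09% of all tested probes did so among the control rats and 4.81% among the pregnant rats. For the difference between these age effects in pregnant and control rats, the edgeR adjusted p was 0.897 for miR-215 and 0.729 for miR-192. The miR-194 log2 fold change for age, from the fit on all 420 probes, was 0.25 (standard error 0.37, edgeR adjusted p = 0.962).

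The age result for miR-215 depended on single rats. Without pregnant replicate 2, the younger rat with the lowest count and the lowest total, its log2 fold change was -2.39 (edgeR adjusted p = 0.0475), and 3 probes were called in place of 0. The others were miR-342-3p and miR-142-3p, both of white blood cells, with -1.59 and -1.27. Without pregnant replicates 5 and 6 the log2 fold changes were -1.23 for miR-215 (edgeR adjusted p = 0.853) and -0.51 for miR-192 (edgeR adjusted p = 0.534). In the age contrast on all rats, the 5 probes with the smallest p were miR-142-3p, miR-342-3p, miR-215, miR-181a and miR-872, all of them lower in older rats and all with an edgeR adjusted p of 0.613.

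**Figure D3:**
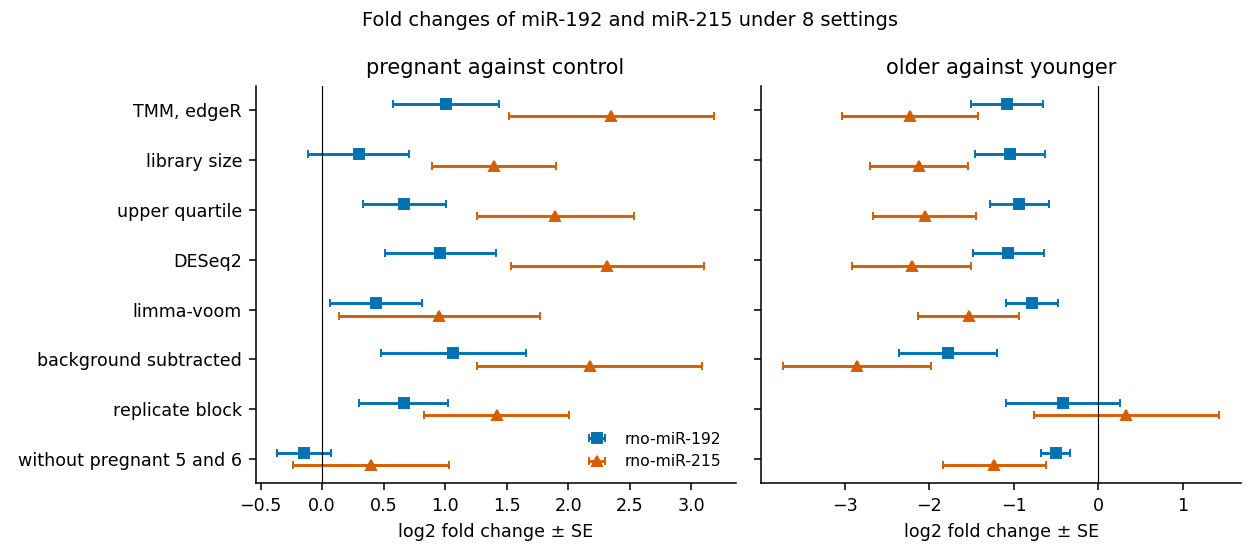
Log2 fold change ± standard error of miR-192 and miR-215 for pregnant against control rats (left) and older against younger rats (right) under 8 settings. For pregnancy, both values lie nearest 0 without pregnant replicates 5 and 6 (-0.15 and 0.40). For age, the miR-215 value turns to 0.33 with the replicate number as a block, where age class differs only within numbers 2 and 3.

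Whether the members varied together from rat to rat was asked next, along with their relation to miR-122 and to miR-451. The 9 pairs were computed on log2 CPM, with two-sided permutation p-values adjusted over these 9. The miR-192 and miR-215 levels rose together over the 12 rats, with Pearson's r = 0.887 (permutation p = 0.00021, adjusted 0.000945) and Spearman's rho = 0.762 (permutation p = 0.00571, adjusted 0.0171). Within the control rats r was 0.881 (exact p = 0.0264, adjusted 0.0594), and within the pregnant rats it was 0.886 (exact p = 0.0278, adjusted 0.125). Without pregnant replicates 5 and 6, the rats farthest from the median of miR-192, r was 0.656 (permutation p = 0.0374, adjusted 0.169) and rho was 0.588 (permutation p = 0.0803, adjusted 0.241), so the relation past the adjusted threshold rested on these 2 rats. With library size scaling r was 0.676 (permutation adjusted p = 0.0717). The same 2 rats set the pregnancy difference by which the family was chosen. Correlations of miR-192 or miR-215 that include them are therefore not independent of that choice. The miR-192 and miR-215 sequences differ at 3 of the 21 positions compared. How far binding of each probe to the other miRNA enters their correlation was not tested.

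Neither member had a relation to its neighbour miR-194 that passed the threshold in the same 12 rats. For miR-192 and miR-194 r was -0.02 and rho was 0.07 (permutation p = 0.946 and 0.834, adjusted 0.946 and 0.834). For miR-215 and miR-194 r was 0.04 and rho was 0.09 (permutation p = 0.908 and 0.783, adjusted 0.946 and 0.834). The miR-194 counts of 1 to 6 limit what these values can show.

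The liver miRNA miR-122, which takes up most of the miRNA of hepatocytes, had no relation to miR-192 or miR-215 past the threshold. Its count was 682, 2632, 1276, 190, 129 and 115 in control replicates 1 to 6 and 2599, 67, 5714, 1760, 1071 and 5397 in the pregnant rats. Pregnant replicate 3 had the highest miR-122 count, with 16 counts of miR-192, and pregnant replicate 5, with the highest miR-192 count, had 1071 of miR-122. Over the 12 rats r was 0.05 for miR-192 and 0.23 for miR-215 (permutation p = 0.862 and 0.471, adjusted 0.946 and 0.847), with rho = -0.17 and 0.26 (permutation p = 0.590 and 0.417, adjusted 0.834 and 0.750). Within the control rats both were negative, with r = -0.81 for miR-192 and -0.85 for miR-215 (exact p = 0.0250 and 0.0264, both adjusted to 0.0594). Within the pregnant rats r was 0.00136 for miR-192 and 0.426 for miR-215 (exact p = 0.999 and 0.418, adjusted 0.999 and 0.753), and the difference between the groups was not tested. For miR-194 and miR-122, r was 0.623 (permutation p = 0.0304, adjusted 0.0685) and rho was 0.469 (permutation p = 0.128, adjusted 0.289).

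The red cell miRNA miR-451 rose with miR-215. Its count was 408, 137, 459, 723, 217 and 590 in control replicates 1 to 6 and 168, 48, 299, 520, 2529 and 1304 in the pregnant rats. Over the 12 rats r was 0.893 (permutation p = 0.00014, adjusted 0.000945) and rho was 0.895 (permutation p = 0.0002, adjusted 0.0018). Within the control rats r was 0.871 (exact p = 0.0250, adjusted 0.0594), and within the pregnant rats it was 0.975 (exact p = 0.00139, adjusted 0.0125). Without pregnant replicates 5 and 6, r was 0.873 (permutation p = 0.00058, adjusted 0.00522) and rho was 0.818 (permutation p = 0.00581, adjusted 0.0523), and with library size scaling it was 0.810 (permutation adjusted p = 0.0147). Without the 2 high rats the relation of miR-215 to miR-451 thus passed the adjusted threshold by r and missed it by rho. For miR-192 and miR-451, r was 0.717 (permutation p = 0.00901, adjusted 0.027) and rho was 0.818 (permutation p = 0.00215, adjusted 0.00967), and without the 2 high rats r was 0.565 (permutation p = 0.0881, adjusted 0.198) and rho was 0.685 (permutation p = 0.0343, adjusted 0.154). For miR-194 and miR-451, r was 0.04 and rho was 0.13 (permutation p = 0.911 and 0.701, adjusted 0.946 and 0.834).

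The ratio of the miR-451 to the miR-23a count, the pair used to follow haemolysis, was between 0.945 and 6.63 in control rats and between 1.30 and 5.49 in pregnant rats. The study judged haemolysis on this pair by RT-qPCR and reported every sample well under its haemolysis threshold. Ratios of counts are another measure and cannot be read against that threshold. Pregnant replicate 5 had the highest ratio of its group, at 5.49, and pregnant replicate 6 had the lowest, at 1.30, while both were high in miR-215. The low ratio of pregnant replicate 6 came with 1005 counts of miR-23a, against 32 to 461 in the other rats. Its miR-451 count, 1304, was exceeded only by that of pregnant replicate 5. The part of red cell RNA in the miR-215 level was not tested.

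**Figure D4:**
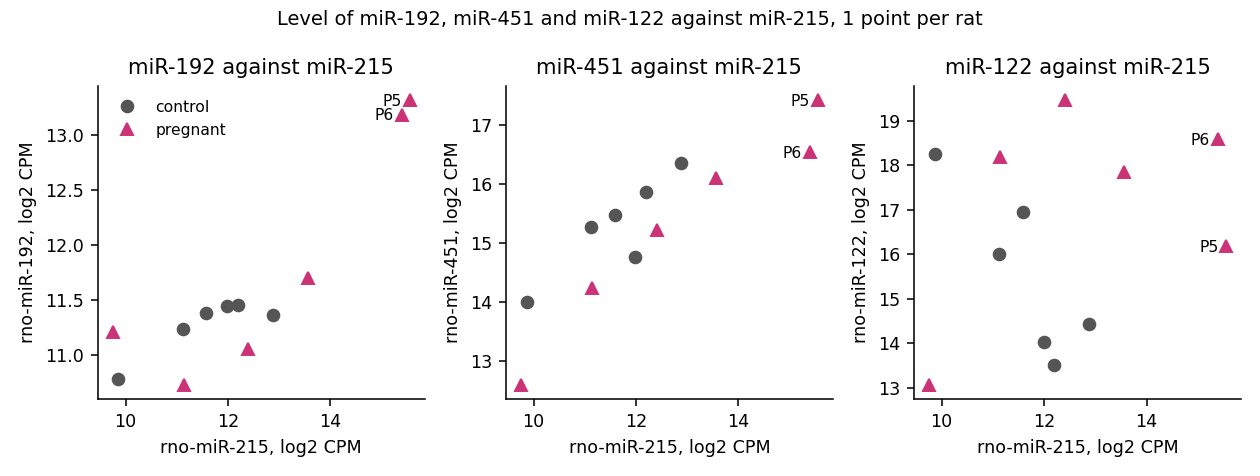
Level of miR-192, miR-451 and miR-122 (log2 CPM, vertical axes) against miR-215 (log2 CPM, horizontal axis) in 12 rats, control as circles and pregnant as triangles, with pregnant replicates 5 and 6 named. The points rise together for miR-451 (r = 0.893) and for miR-192 (r = 0.887, or 0.656 without the 2 named rats) and show no common trend for miR-122 (r = 0.228).

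The probes whose order over the rats was most like that of each member were taken by Spearman's rho among the 187 tested probes, as a description over 12 rats that share their scaling. For miR-215 they were miR-191 (0.972), miR-25 (0.972), miR-203 (0.923), miR-106b (0.902) and miR-93 (0.902), with miR-451 6th and miR-192 16th. Without pregnant replicates 5 and 6 these 5 values were between 0.830 and 0.964. For miR-192 they were miR-16 (0.902), miR-30d (0.874), miR-106b (0.839), miR-142-3p (0.839) and miR-25 (0.839), with miR-215 10th and miR-122 115th. Without the same 2 rats they were between 0.721 and 0.842. The miR-25, miR-93 and miR-106b genes share an intron of a DNA replication gene, and miR-16 and miR-25 are plentiful in blood cells. For miR-194, at background counts, the highest were miR-365 (0.734), miR-3561-5p (0.622), miR-146b (0.566), miR-1949 (0.566) and miR-7a (0.552).

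Among other miRNAs of the same organs, none passed the test in either contrast. In the liver list, 0 of 3 tested probes passed the adjusted threshold for pregnancy by edgeR, and the median log2 fold change was 0.77. It held miR-101b with 0.77, miR-122 with 1.65 and miR-802 with -0.19 (edgeR adjusted p = 0.670, 0.732 and 0.901). In the epithelial list 0 of 5 passed, with a median of 0.20, and its highest value was that of miR-203, an miRNA of stratified epithelium, with 1.08 (edgeR adjusted p = 0.670). In the kidney list 0 of 4 passed, with a median of 0.33, and its highest value was that of miR-30d with 0.82 (edgeR adjusted p = 0.732). Over all tested probes the median was 0.05. In these 3 lists, 3 probes were under 0.05 without adjustment for pregnancy, namely miR-101b, miR-200a and miR-203, all of them higher in pregnant rats, where 5.35% of all tested probes were. For age, 1 of these 12 probes was under 0.05 without adjustment, the liver and pancreas miRNA miR-802, with a log2 fold change of -0.56 (edgeR adjusted p = 0.633), where 6.42% of all tested probes were.

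In the red cell list, 0 of 3 tested probes passed for pregnancy by edgeR, with a median of 0.76, and in the list of white cells and platelets 0 of 6 passed, with a median of 0.66. Without adjustment 1 of these 9 was under 0.05, the red cell miRNA miR-144 with 1.31 (edgeR adjusted p = 0.670), where 5.88% of all tested probes were. The summed levels of these lists and of the epithelial and kidney lists were higher in pregnant replicates 5 and 6, the rats high in miR-192 and miR-215, than in the other 10 rats. The red cell probes summed to 308700 and 239300 CPM there, against 37670 to 144000 CPM in control rats and 7553 to 117400 CPM in the other 4 pregnant rats. The probes of white cells and platelets summed to 182500 and 230500 CPM, against 28080 to 102000 CPM in control rats and 14100 to 99320 CPM in the other 4. The epithelial probes summed to 21250 and 22910 CPM, against at most 13020 CPM in control rats and 14650 CPM in the other 4, and the kidney probes to 23740 and 22980 CPM, against at most 13080 and 14270 CPM. The liver list differed, with sums of 79610 and 399300 CPM, against 14820 to 315300 CPM in control rats and 13720 to 725500 CPM in the other 4. Not every probe of the lists was high there, since miR-142-5p had 24 and 20 counts, against up to 28 in control rats, and miR-92a had 1 and 3, against up to 5. In the epithelial list miR-200c had 15 and 20 counts, against up to 29, and in the kidney list miR-10a-5p had 19 and 19, against up to 24. The highest counts of these 2 lists there were those of miR-203, 138 and 203, and of miR-30b-5p, 130 and 87. How many of all probes were highest in pregnant replicates 5 and 6 was not counted. The part of these cell types in the levels of miR-192 and miR-215 was not tested. For age, the median log2 fold change was -1.27 in the red cell list and -1.14 in that of white cells and platelets, beside -0.02 over all tested probes, and 0 and 3 of their probes were under 0.05 without adjustment, all lower in older rats, where 5.35% of all tested probes were. By edgeR, 0 of these 9 probes passed after adjustment. The p53 targets miR-34a, miR-34b and miR-34c had between 1 and 23 counts, and 0 of the 3 passed the count filter. They summed to 2561 and 1903 CPM in pregnant replicates 5 and 6, against up to 2809 CPM in control rats and 3273 CPM in the other 4 pregnant rats.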

How the data were processed

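The deposited values were raw counts of the nCounter Rat v1.5 miRNA codeset, with no background correction or normalisation, and the samples were run as 1 lane per rat. The table holds 420 endogenous, 5 exogenous and 4 mRNA probes (0 unused columns). No 2 rats had the same counts over all probes (66 pairs compared), and each rat was counted as a replicate.

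Groups and ages came from the labels. The members, the related lists and the tests were chosen with earlier results of these data known. Counts of endogenous probes were fitted with edgeR's quasi-likelihood test and TMM, with Benjamini-Hochberg adjustment over the 187 probes that reached 10 counts in 6 or more rats, for pregnancy alone and for age with pregnancy as a covariate. Levels are CPM with these factors, and log2 CPM used a prior count of 1. Correlations used 100000 permutations over all rats, which give a smallest p of 1e-05, and exact permutations within groups. The stand-in for background was osa-miR442, ath-miR159a and the probes for miR-248 and miR-254 of C. elegans in each rat, picked in earlier work once their counts were known.

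Probes named are the members, the 5 most like each member by Spearman's rho, those of the related lists and the 5 with the smallest p for age. The lists were: liver, miR-122, miR-148a, miR-193, miR-193a, miR-101a, miR-101b and miR-802; epithelium, miR-200a, miR-200b, miR-200c, miR-141, miR-429, miR-31 and miR-203; kidney, miR-204, miR-30a to miR-30e, miR-10a, miR-10b and miR-196a; red cells, miR-451, miR-144, miR-486, miR-16 and miR-92a; white cells and platelets, miR-223, miR-142, miR-150, miR-155, miR-126 and miR-146a; p53 targets, miR-34a to miR-34c. Alternatives were other scalings, tools, filters, background subtraction, a replicate block and leaving out rats. The procedures were tested on simulated data. In R 4.3.3, edgeR 4.0.16 was used, with DESeq2 1.42.0 and limma 3.58.1 as alternatives. In Python 3.11.15, scipy 1.17.1, pandas 2.3.3 and numpy 2.4.6 were used.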

Additional observations from a re-analysis of the deposited data

Results flagged for a closer look

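The miR-192 level of control replicate 2 lay apart from the other control rats, with 10.78 log2 CPM where the next lowest rat had 11.24. Its gap to that rat was 0.677 of the range of the group, above the 95% critical value of Dixon's test for 6 rats, which chance exceeds in about 1 of 20 groups. On raw counts, 14 against 21 in the next lowest rat, the gap was 0.538 of the range and under the critical value. The high values of pregnant replicates 5 and 6 lie close to each other and so were not singled out by this test.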

How the results depend on the processing

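The number of probes called for pregnancy was 0 under all 23 alternatives. The number called for age was 0 under 21 of 22 alternatives and 3 without pregnant replicate 2. The unadjusted number for pregnancy, 11 of 187 tested probes, moved between 2 of 80 after background subtraction and 20 of 420 without the count filter. The number of probes tested thus moved with it. With the replicate number as a block, 0 probes were called in either contrast, the log2 fold changes for pregnancy were 0.66 for miR-192 and 1.42 for miR-215, and that of miR-215 for age turned to 0.33 (standard error 1.10). Same-numbered rats deviated with correlations between -0.33 and 0.26, so the number is not a pairing. Age class differed only within numbers 2 and 3, so the blocked age values rest on those rats. The miR-192 log2 fold change for pregnancy turned to -0.15 without pregnant replicates 5 and 6, and that of miR-215 moved to 0.40.

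With 1 rat left out, r ran from 0.833 to 0.926 for miR-192 and miR-215, from 0.589 to 0.843 for miR-192 and miR-451 and from 0.853 to 0.909 for miR-215 and miR-451. It ran from -0.155 to 0.0922 for miR-192 and miR-194, from -0.067 to 0.135 for miR-194 and miR-215, from -0.117 to 0.232 for miR-194 and miR-451, from -0.189 to 0.161 for miR-192 and miR-122, from 0.555 to 0.733 for miR-194 and miR-122, and from 0.0278 to 0.386 for miR-215 and miR-122. The relation of miR-192 to miR-451 lost its call without control replicate 2 (r = 0.687) or pregnant replicates 1 (0.692), 5 (0.589) or 6 (0.708), and that of miR-194 to miR-122 gained one without control replicate 6 (0.733). With library size scaling, r was 0.676 for miR-192 and miR-215, 0.523 for miR-192 and miR-451, -0.414 for miR-194 and miR-215, -0.616 for miR-192 and miR-122, -0.119 for miR-215 and miR-122 and -0.26 for miR-194 and miR-451. On raw counts it was 0.362 for miR-192 and miR-194. After background subtraction it was -0.711 for miR-192 and miR-194, -0.703 for miR-194 and miR-215, -0.338 for miR-192 and miR-122, -0.231 for miR-194 and miR-122, 0.585 for miR-192 and miR-451 and -0.503 for miR-194 and miR-451, where miR-194 was at the floor of 1 in every rat and its values were those of the scaling. With group means removed it was -0.125 for miR-194 and miR-215 and -0.113 for miR-192 and miR-122. Without the 2 rats farthest from the median, which were pregnant replicates 5 and 6 for miR-192, it was 0.656 for miR-192 and miR-215, 0.565 for miR-192 and miR-451 and -0.451 for miR-192 and miR-122. Apart from the values at the floor and the settings whose construction leaves out rats, the cause was not tested. Against a background mean of 7.25 to 15.75 counts, low counts limit what can be read from some values. These are miR-194 in all 12 rats and miR-215 in control replicate 2 and pregnant replicate 2, where the counts were under this mean. They are also miR-192 in the 7 rats where its count was above the background mean but not above the mean + 2 SD.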

Other observations

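Other miRNAs had the same 2 high rats. The miR-30e probe, which did not pass the count filter, had 22 and 27 counts in pregnant replicates 5 and 6 and at most 9 in the other 10 rats, with Spearman's rho of 0.839 to miR-192 and 0.923 to miR-215. The lymphocyte miRNA miR-150 had 1815 and 1878 counts in these rats and at most 591 in the others. The endothelial and platelet miRNA miR-126 had 414 and 752 counts and at most 149 in the others. These are raw counts, and the same 2 rats had the highest totals, 24010 and 30301 counts against at most 13102 in the others. How many of all probes were highest in these 2 rats was not counted. The probes named here were singled out after their values had been seen.

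The miR-16 probe, the most like miR-192 in the order of the rats, had 1 count in pregnant replicates 1 and 2 and at least 167 in every control rat. The miR-30c probe had 1 count in all 12 rats.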
